A study of Physcomitrium patens with 24 samples.

Results

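The genes described here are 150 genes of the moss Physcomitrella patens whose transcripts were low after 12 h at 24 °C, compared with 1 h and with 24 h at the same temperature. They were chosen by their measured levels at 24 °C alone, from a starting set of 18076 genes with a mean of at least 1 CPM (the counts of a gene scaled to a common library total) over the 8 libraries kept at 24 °C, out of 32926 genes counted. For each gene the log2 ratio of the 12 h mean to the 1 h mean, and to the 24 h mean, was taken after adding 1 CPM, and the median of all genes in the starting set was subtracted. The larger of both values had to be among the 150 lowest, with 3 light signalling and clock homologs (Pp3c3_37540, Pp3c5_26150 and Pp3c19_5540) left out beforehand. These 150 genes are called trough genes below.

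Protonemata, the branching filaments that grow from moss spores, of the Gransden strain were grown on PpNH4 medium at 24 °C with 16 h of light and 8 h of dark. Tissue was then kept at 24 °C as the unheated control, or moved to 30 °C or to 37 °C, and harvested 1, 6, 12 or 24 h later, and RNA was taken from protonemata aged 7 days. No transgene or deletion was named for any group, and each of the 12 groups had 2 libraries of polyadenylated RNA from whole tissue. The hour of the day at which the treatments began was not given in the sources used here.

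In plants, many transcripts rise and fall once a day, driven by light and dark and by the circadian clock, a loop of transcription factors that repress each other at set hours. Transcripts with a common daily phase often belong to light signalling, photosynthesis or sugar metabolism. Heat adds a response of its own, in which heat shock factors switch on chaperone genes while many other transcripts fall. A change with time in heated tissue therefore has to be read beside the same hours in unheated tissue.

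Total counts ranged from 4332911 to 10696081 per library, and TMM scaling factors from 0.652 to 1.19. The chi-square between the 2 libraries of a group was highest at 37 °C 1 h (40.3 per gene) and lowest at 24 °C 24 h (2.90 per gene). Among trough genes, the 2 libraries of a group were apart by a median of 0.16 (24 °C 24 h) to 0.50 (37 °C 1 h) on the log2(CPM + 1) scale. At 37 °C 1 h, 36 trough genes were at least 2-fold apart, and in all 36 replicate 2 was the higher. Such genes were not counted outside the trough genes. The median trough gene was at 6.07 in replicate 1 and 6.66 in replicate 2 of this group. Replicate 2 decided some of the values below, and some of these are also given without it. Not given without it are the median levels and fold changes at 37 °C, the share of the fall regained, and the calls of 6 h or 24 h against 1 h at 37 °C.

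The trough at 24 °C was set by the choice of genes and is only described. The first gene by the rule, Pp3c13_12570, had a value of −5.62, the median over the 150 genes was −2.72, and the last gene had −2.20. Just inside the limit were Pp3c11_24780 (−2.21), Pp3c15_25860 (−2.20) and Pp3c5_21160 (−2.20). Just outside were Pp3c6_23720, Pp3c24_12160 and Pp3c24_4450, all at −2.19. The limit therefore cuts through a continuous range, and the genes on its sides hardly differed.

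The 6 h libraries at 24 °C were not used by the rule except in setting the starting set. At 6 h, 135 trough genes had a mean between their 12 h mean and the lower of their 1 h and 24 h means, and 15 were at or below their 12 h mean. By then the median gene had covered 67.8% of its log2 fall from 1 h to 12 h (quartiles 53.2% and 85.5%). The median of the 150 group means on the log2(CPM + 1) scale went from 6.73 at 1 h to 4.74 at 6 h, 4.01 at 12 h and 6.70 at 24 h. Together the trough genes took 3.19% ± 0.0654 (SD, n = 2) of all counts at 1 h, 0.920% ± 0.0956 at 6 h and 0.391% ± 0.0108 at 12 h. By 24 h the share was 2.79% ± 0.109. The 1 h and 12 h ends of this fall were set by the rule, and its share at 6 h was not computed over other genes, so it is only described. The rule asked for both the 1 h and the 24 h level to lie well above the 12 h level, so nothing is read from the return by 24 h. In whole tissue, fewer cells of a type and less RNA per cell cannot be told apart.

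**Figure D1:**
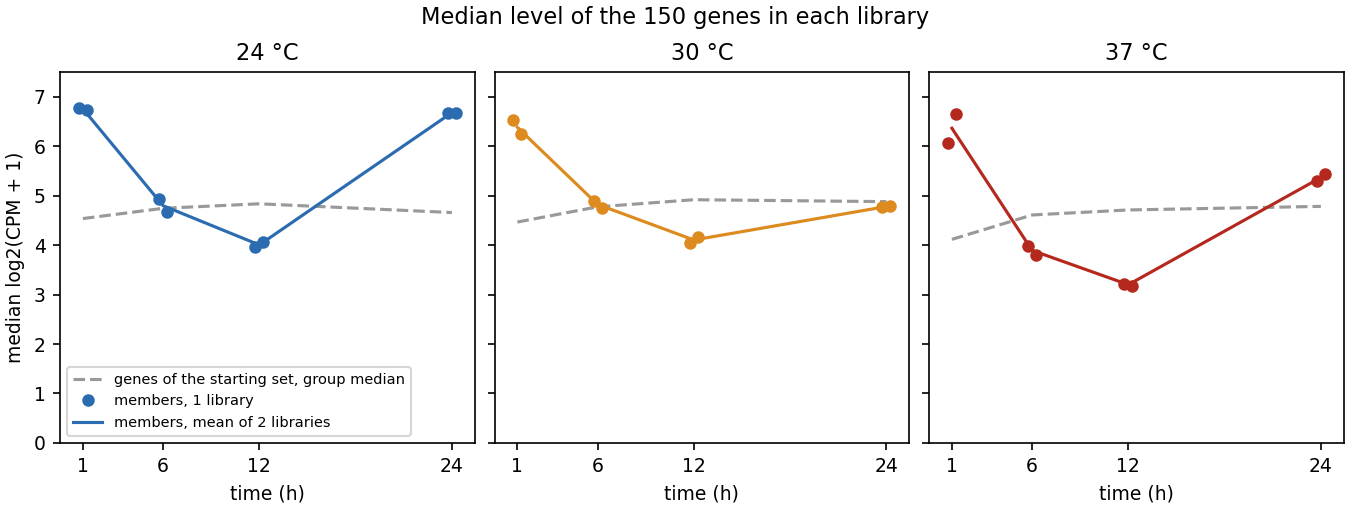
Median level of the 150 trough genes on the log2(CPM + 1) scale (vertical axis) against time in hours (horizontal axis) at 24, 30 and 37 °C, with points for single libraries, solid lines for the mean of 2 libraries, and dashed lines for the group median of the starting set. All 3 temperatures fall to 12 h, and at 24 h the heated libraries stay below the 24 °C libraries, with 30 °C lowest.

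Product names were found for 3 of the 150 trough genes and for 489 of the 18076 genes in the starting set, all from the study's own tables. Pp3c6_5030 is a homolog of COP1, which in Arabidopsis is a ubiquitin ligase that marks light signalling transcription factors for breakdown in the dark. Pp3c11_6300 is annotated as a B-box type zinc finger and CCT domain gene, a family that in Arabidopsis includes the flowering regulator CONSTANS. Pp3c13_8540 encodes a member of the cysteine proteinase superfamily, enzymes that cut proteins with a cysteine in their active site. Of 13 lists of genes made from name patterns, the light signalling and clock list held 2 trough genes (of 17 in the starting set) and the transcription factor list held 1 (of 26, Pp3c11_6300, also in the first). The other 11 held none, among them the list of 47 heat shock protein and chaperone genes and several lists with hardly a named gene to hold. The remaining 147 trough genes are known here only by their identifiers, so no role is given to them.

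By the numbers in their identifiers the trough genes lay on all 27 chromosomes, with 1 to 10 on each. There were 5 pairs of direct neighbours in the order of locus numbers, for example Pp3c21_9970 and Pp3c21_9980. The libraries were made with a strand-specific kit, but the counts were made at default settings, which do not use strand, so overlapping genes and their antisense partners cannot be told apart. Near-identical neighbours could likewise share reads.

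**Figure D2:**
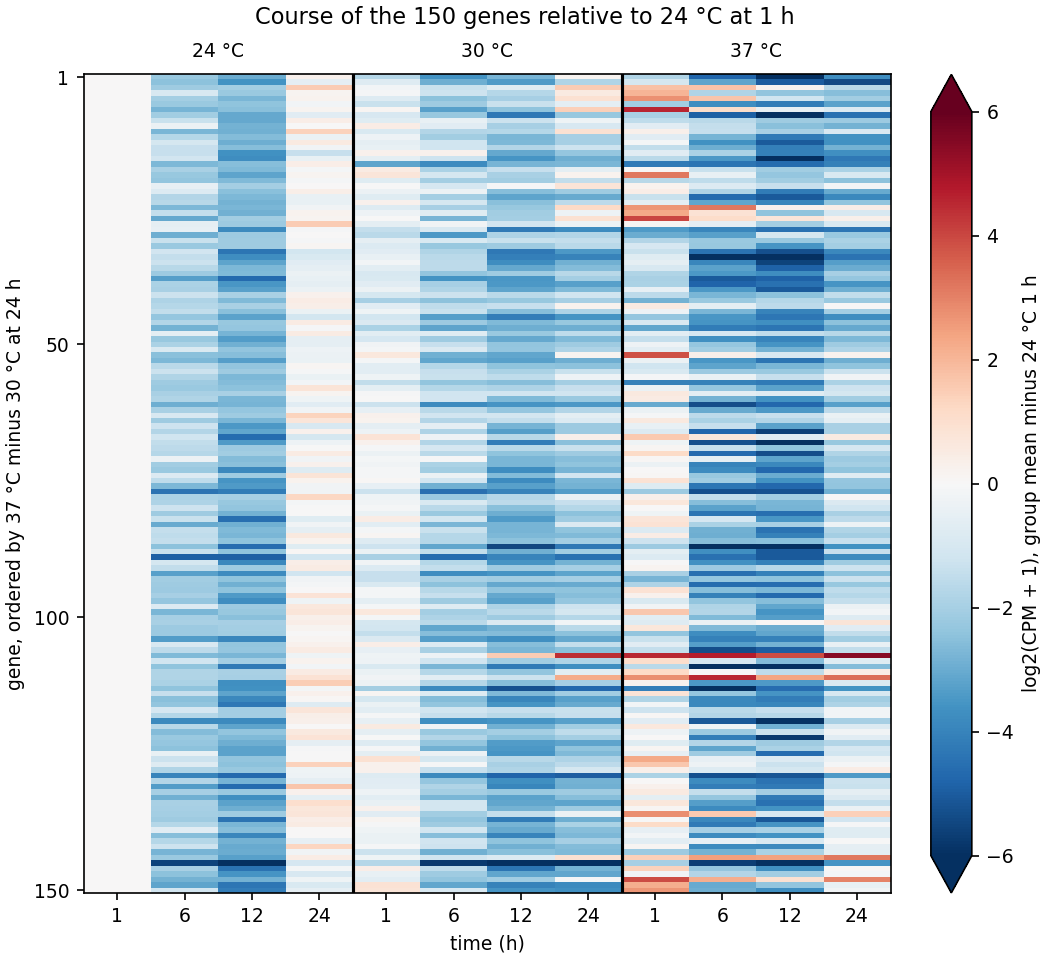
Each row is 1 of the 150 trough genes and each column 1 of the 12 groups, with time in hours on the horizontal axis within each temperature, and the colour gives the group mean of log2(CPM + 1) minus that of 24 °C 1 h. Rows are ordered by the difference between 37 and 30 °C at 24 h, and the 12 h columns are blue at all 3 temperatures while the 24 h column is palest at 24 °C.

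At 30 °C, which none of the rule's values came from, the trough genes fell and then mostly stayed down. Their median level on the log2(CPM + 1) scale went from 6.34 at 1 h to 4.89 at 6 h, 4.11 at 12 h and 4.76 at 24 h. Calls below used edgeR's quasi-likelihood test on counts at a Benjamini-Hochberg adjusted p under 0.05 over the 21429 genes tested, provided that the log2 fold change was 1 or more in either direction. All 150 trough genes passed the filter on low counts. At 6 h already, 112 were called lower than at 1 h, where 5.98% of all genes tested were. From 6 h to 12 h, 60 were called lower and 1 higher, where 2.05% and 0.672% were. Between 1 h and 12 h at 30 °C, 129 of the 150 were called lower, where 8.32% of all genes tested were. None was called higher by edgeR, DESeq2 or limma-voom, or at an unadjusted p under 0.05, where 9.91% of all genes were called higher. The median log2 fold change was −2.77, against 0.06 over all genes. In 141 genes both 12 h libraries lay below both 1 h libraries, a count that was not made over all genes.

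From 12 h to 24 h at 30 °C, the change was small and mostly upward. The median log2 fold change was 0.66, against −0.002 over all genes, and it was above 0 in 140 of the 150 genes. In 111 genes both 24 h libraries lay above both 12 h libraries. Neither of these counts was made over all genes. Only 6 genes were called higher by edgeR, where 0.0653% of all genes tested were (14 genes in all). None was called lower by edgeR, where 0.117% of all genes tested were, or by DESeq2 or limma-voom, or at an unadjusted p under 0.05. At an unadjusted p under 0.05, 73 were higher, a count that was not made over all genes, so nothing is read from it. The count of 6 became 19 with DESeq2 and 8 with limma-voom. It became 1 without 30 °C 12 h replicate 1 and 12 without 30 °C 12 h replicate 2.

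Tissue kept for 24 h at 30 °C therefore had lower levels of most trough genes than tissue kept there for 1 h. Of the 150, 116 were called lower at 24 h than at 1 h, where 8.77% of all genes tested were, with a median log2 fold change of −2.13. The single gene called higher was Pp3c12_22320, where 11.1% of all genes were called higher, and this count was 0 without 30 °C 1 h replicate 2 and 3 without 30 °C 24 h replicate 2. Measured as the share of the log2 fall made up again by 24 h, the 131 trough genes with a fall of at least 1 returned by a median of 23.8% (quartiles 15.3% and 37.1%). The 899 genes of the starting set with such a fall, trough genes included, returned by a median of 12.8%.

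At 37 °C the fall was deeper and the later rise was larger. The median level went from 6.56 at 1 h to 3.83 at 6 h, 3.13 at 12 h and 5.40 at 24 h on the log2(CPM + 1) scale. By 6 h, 131 were called lower than at 1 h, where 16.1% of all genes tested were, and from 6 h to 12 h 45 were called lower and 2 higher, where 4.43% and 2.56% were. Between 1 h and 12 h, 138 of the 150 were called lower by edgeR and 1 higher (Pp3c10_6490), where 19.9% and 18.4% of all genes tested were. The median log2 fold change was −3.99, and −3.87 with 3 genes whose 12 h libraries were both at 0 set to a floor of 3 counts per library. The count of 1 was 0 without 37 °C 12 h replicate 1, 2 without 37 °C 12 h replicate 2 and 4 without 37 °C 1 h replicate 2.

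From 12 h to 24 h at 37 °C, 102 trough genes were called higher by edgeR and 1 lower (Pp3c10_6490), where 6.54% and 5.37% of all genes tested were. The median log2 fold change was 1.68, against −0.001 over all genes. In 128 genes both 24 h libraries lay above both 12 h libraries, a count that was not made over all genes. The count of 1 lower was 0 without 37 °C 12 h replicate 1 and 3 without 37 °C 12 h replicate 2. The return was partial, since 116 of the 150 were still called lower at 24 h than at 1 h, where 20.4% of all genes tested were. The 130 genes with a fall of at least 1 regained a median of 55.4% of it (quartiles 38.1% and 74.7%), beside 26.8% over the 2214 such genes of the starting set. Neither the count of 116 nor this share was computed without 37 °C 1 h replicate 2. With limma-voom's treat test, which asks for a change beyond 2-fold, 45 genes were called higher in place of 102.

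**Figure D3:**
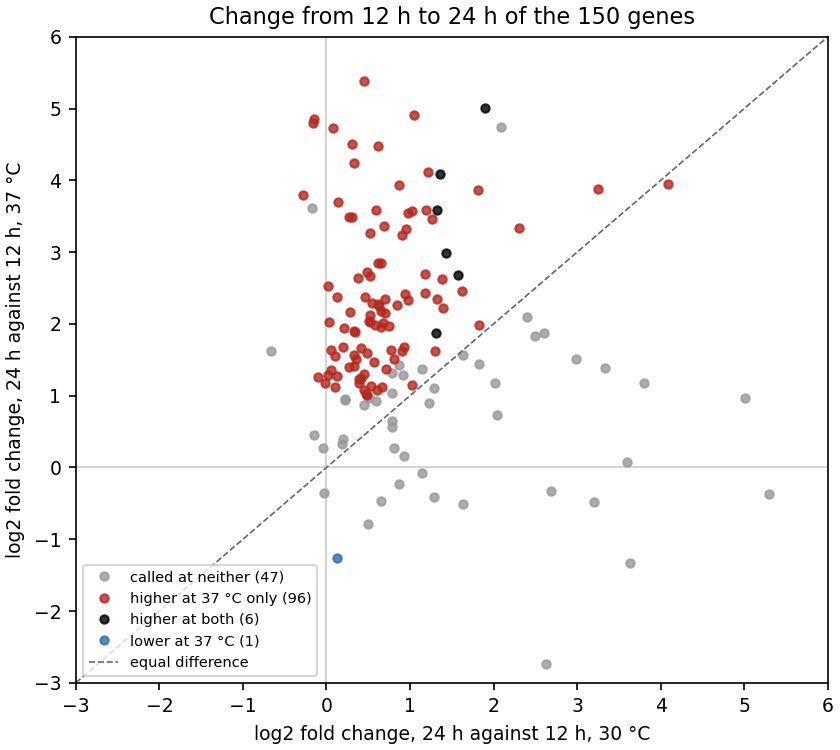
Log2 fold change from 12 h to 24 h of each of the 150 trough genes at 30 °C (horizontal axis) and at 37 °C (vertical axis), coloured by the edgeR calls, with a dashed line where both would be equal. The 96 genes called higher at 37 °C only lie mostly above the line, and the 6 called at both are black.

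The difference between the temperatures was tested itself, as the change at 37 °C minus the change at 30 °C. For 12 h against 1 h, 57 trough genes had a lower difference at 37 °C and 5 a higher one by edgeR, where 12.1% and 7.32% of all genes tested did, with a median difference of −1.25 on the log2 scale. For 24 h against 12 h, 62 had a higher difference at 37 °C and 3 a lower one, where 3.91% and 3.42% of all genes did, with a median of 1.12. With limma-voom's treat test, which asks for a change beyond 2-fold, the 57 became 7 and the 62 became 7. Leaving out 1 library at a time gave 47 to 72 in place of 57 and 44 to 60 in place of 62. The counts of 5 and 3 were less stable: 5 became 13 without 37 °C 1 h replicate 2 and 8 without 30 °C 12 h replicate 1, and 3 became 1 without 30 °C 12 h replicate 1, 0 without 37 °C 12 h replicate 1 and 7 without 37 °C 12 h replicate 2.

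**Figure D4:**
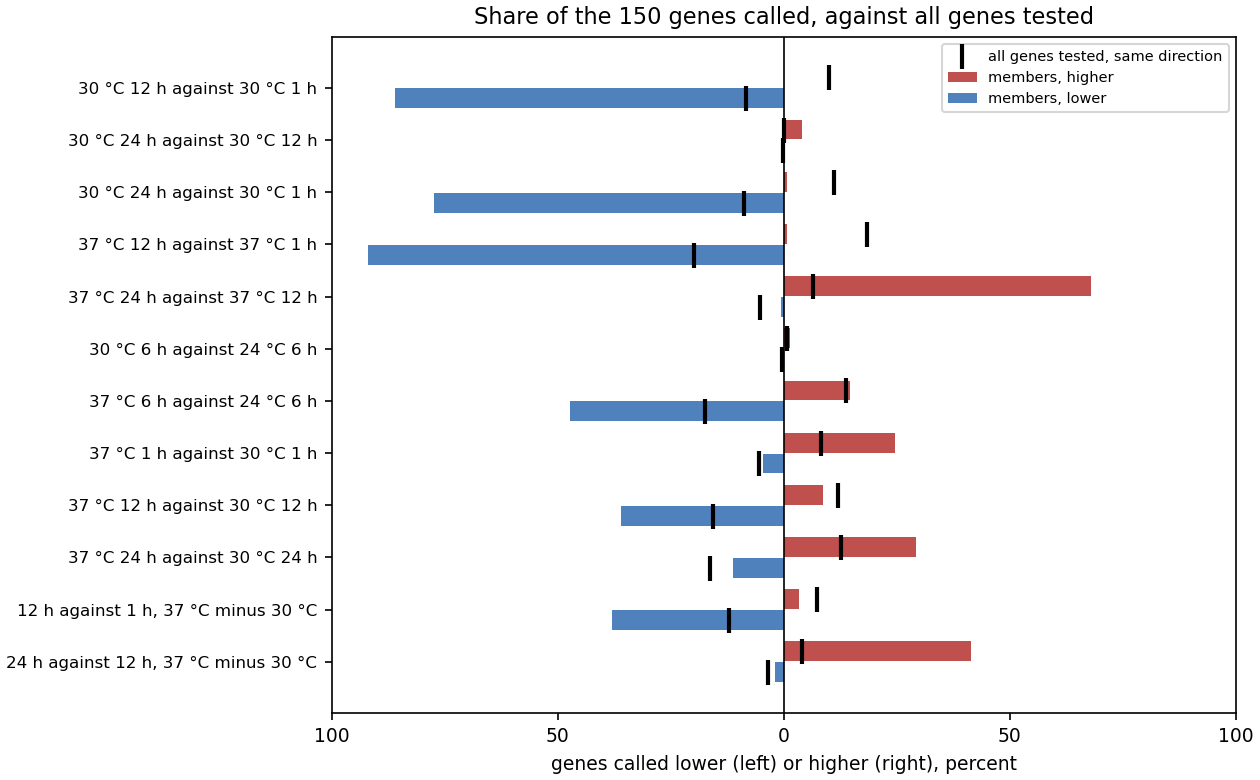
Percent of the 150 trough genes called higher (bars to the right) or lower (bars to the left) in each of 12 comparisons that hold none of the 24 °C libraries of 1, 12 and 24 h, with black ticks for all 21429 genes tested. The bars pass the ticks most in the falls from 1 h at both temperatures and in the rise from 12 h to 24 h at 37 °C.

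At 6 h, the calls between 30 and 24 °C were few among trough genes and among all genes. The median log2 fold change of the trough genes was 0.00, with 75 above and 75 below 0 and quartiles of −0.33 and 0.36, beside a median of −0.01 over all genes. By edgeR 2 trough genes (Pp3c3_12462 and Pp3c16_18400) were higher at 30 °C and 0 lower, where 0.658% and 0.457% of all genes tested were. At an unadjusted p under 0.05, 14 were higher and 15 lower, DESeq2 called 2 and 2, and limma-voom called 2 and 1, all counted for trough genes only. The count of 2 higher became 1 without 24 °C 6 h replicate 1 and 0 without either 24 °C 6 h replicate 2 or 30 °C 6 h replicate 1, and 1 gene was then called lower without the last of these. At 37 °C, 71 were lower and 22 higher than at 24 °C, where 17.5% and 13.8% of all genes tested were, with a median of −0.90.

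Between the heated groups, the order at 1 h depended on 1 library and on the scaling. At 1 h, 37 genes were higher at 37 °C than at 30 °C and 7 lower by edgeR, where 8.16% and 5.4% of all genes tested were. That count was 9 without 37 °C 1 h replicate 2, 12 without 30 °C 1 h replicate 2 and 23 with limma-voom, and the 7 became 4 without 30 °C 1 h replicate 1. Scaling by library totals moved the median of all genes by −0.35 here and gave 24 higher and 16 lower, so that the share of higher calls fell from 84.1% to 60.0%. The median log2 fold change of the trough genes was 0.40 with TMM and 0.02 with library totals. In CPM, which uses library totals, both 37 °C libraries lay below both 30 °C libraries in 57 genes and above them in 33. Such counts were not made over all genes, and no order is read from this hour.

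At 6 h, 69 genes were lower at 37 °C than at 30 °C and 14 higher, where 13.8% and 9.75% of all genes tested were. At 12 h, 54 were lower and 13 higher by edgeR, where 15.7% and 11.9% were, and the 13 became 7 without 30 °C 12 h replicate 1 and with limma-voom. At 24 h more genes were higher than lower, with 44 higher at 37 °C and 17 lower, where 12.7% and 16.3% of all genes tested were, and a median log2 fold change of 0.53.

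Comparisons with the 24 °C libraries of 1, 12 and 24 h share the libraries that chose the genes, so their edgeR counts are a description and nothing is read from them. Within 24 °C, 129 trough genes were lower at 6 h than at 1 h, where 5.43% of all genes tested were, and 144 were lower at 12 h, where 6.16% were. No trough gene was higher in these, where 8.39% and 7.93% of all genes were. From 12 h to 24 h, 144 were higher, where 5.51% were, and none lower, where 4.87% were. Between 1 h and 24 h, 5 were higher and 7 lower, where 2.78% and 0.961% were. After 1 h, 1 trough gene was higher and 16 lower at 30 °C than at 24 °C, where 2.46% and 1.07% of all genes tested were, and at 37 °C 34 were higher and 31 lower, where 12.7% and 10.7% were. After 12 h, 6 were higher and 2 lower at 30 °C, where 1.61% and 1.05% were, and at 37 °C 25 were higher and 50 lower, where 16.7% and 18.8% were. After 24 h, 123 were lower and 1 higher at 30 °C, where 9.41% and 9.3% were, with a median log2 fold change of −2.37. At 37 °C 111 were lower and 4 higher after 24 h, where 19.5% and 18.0% were, with a median of −1.92. The medians were 0.13 at 30 °C and −0.44 at 37 °C after 12 h, and −0.31 and 0.16 after 1 h.

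The COP1 homolog Pp3c6_5030 fell at all 3 temperatures and after 24 h at 37 °C was near its unheated level, though below its own level at 1 h. At 24 °C its CPM in both libraries was 112 and 110.1 at 1 h, 29.8 and 27.4 at 6 h, 4.21 and 4.15 at 12 h, and 102 and 106 at 24 h. At 30 °C it was 153 and 141, then 35.7 and 39.8, then 3.87 and 4.85, and at 24 h 10.8 and 18.4. At 37 °C it was 241 and 335, then 25.2 and 18.0, then 3.77 and 11.8, and at 24 h 122 and 116. The 12 h libraries were lowest at every temperature. At 24 h the 37 °C libraries lay close to the unheated ones, while the 30 °C libraries lay far below both. From 12 h to 24 h the log2 fold change was 3.87 ± 0.34 (SE) at 37 °C (edgeR adjusted p = 4.3e-07) and 1.81 ± 0.37 at 30 °C (edgeR adjusted p = 0.053). The difference between these was 2.06 ± 0.50 (edgeR adjusted p = 0.014, 0.06 without 30 °C 24 h replicate 1, 0.096 when only the libraries compared were fitted, and 0.87 with limma's treat test).

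The 3 genes left out of the set by the rule, which would have ranked among the 150, had these values after 24 h. Pp3c5_26150, another of several COP1 homologs listed by the study, had 8.72 and 11.0 CPM at 30 °C 24 h and 64.0 and 47.7 at 37 °C 24 h. Pp3c19_5540, a homolog of DET1, a repressor of light responses in Arabidopsis, had 71.1 and 80.4 CPM and 181 and 186. Pp3c3_37540, a homolog of the morning clock factor CCA1, had 16.4 and 24.3 CPM and 106 and 63.5. In each of these 3 genes both 37 °C libraries lay above both 30 °C libraries at 24 h. The COP1 homologs did not all share the trough at 24 °C. The mean CPM of Pp3c1_13190 at 1, 12 and 24 h was 15.6, 98.4 and 14.4. Pp3c16_19410 did dip at 12 h, with 95.5, 34.2 and 110.7, but its value by the rule, −1.70, lay outside the limit.

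The B-box gene Pp3c11_6300 was close to silent at 12 h at every temperature and rose again by 24 h at 24 and 37 °C, at 37 °C to a level below that of 1 h. At 12 h its CPM was 0.374 and 0 at 24 °C, 0.664 and 0.923 at 30 °C, and 1.02 and 0.221 at 37 °C. At 24 h it was 9.64 and 17.1 at 24 °C, 0.260 and 0.996 at 30 °C, and 16.5 and 16.8 at 37 °C. The 30 °C libraries of 24 h overlapped those of 12 h, and both 37 °C libraries of 24 h lay far above them. At 24 h it was higher at 37 °C than at 30 °C by 4.70 ± 0.56 (SE) on the log2 scale (edgeR adjusted p = 3.3e-06). It was also higher after 1 h, at 109.7 and 146 CPM at 37 °C against 35.5 and 32.9 at 30 °C (log2 fold change 2.29 ± 0.36, edgeR adjusted p = 2.1e-04), while at 6 h its 37 °C libraries (1.59 and 1.78) lay below those at 24 °C (9.69 and 6.79).

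The cysteine proteinase gene Pp3c13_8540 fell without a rise that passed the test at either heated temperature. Its CPM at 1 h, 12 h and 24 h was 219 and 172, 35.6 and 27.2, and 30.1 and 25.9 at 30 °C. At 37 °C it was 557 and 423, 64.7 and 48.3, and 94.5 and 62.9. The 24 h libraries overlapped the 12 h libraries at both temperatures, and those at 37 °C were all higher than those at 30 °C. From 1 h to 12 h the log2 fold change was −3.07 ± 0.26 (SE) at 30 °C (edgeR adjusted p = 1.2e-07) and −3.80 ± 0.26 at 37 °C (edgeR adjusted p = 2.5e-09). From 12 h to 24 h it was −0.14 ± 0.25 (edgeR adjusted p = 0.87) and 0.45 ± 0.24 (edgeR adjusted p = 0.19).

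**Figure D5:**
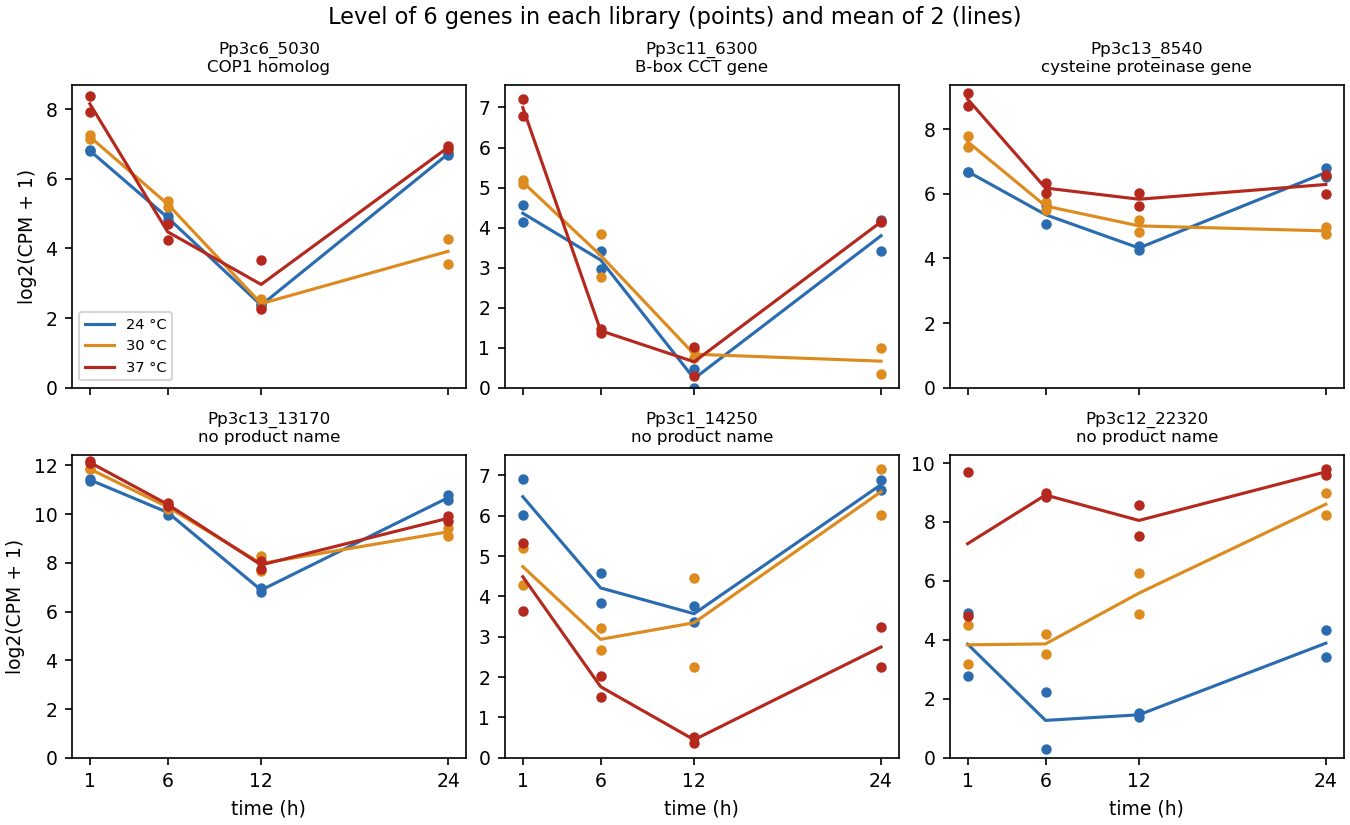
Level of 6 trough genes on the log2(CPM + 1) scale (vertical axes, which differ between panels) against time in hours at 24, 30 and 37 °C, with points for libraries and lines for the mean of 2. The COP1 homolog and the B-box gene are higher at 24 h at 37 °C than at 30 °C, Pp3c1_14250 has its low 24 h values at 37 °C, and Pp3c12_22320 ends high at both heated temperatures.

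The genes without a name in the next 5 paragraphs were chosen after their values were seen, to show the range of courses. Pp3c13_12570, the first gene by the rule, had 120.4 and 86.0 CPM at 24 °C 1 h, 0 and 0.327 at 12 h, and 49.3 and 51.0 at 24 h. At 30 °C it had 34.9 and 27.4 at 1 h, 0 and 0 at 12 h, and 0.651 and 0 at 24 h. At 37 °C it had 9.19 and 40.4, then 0.435 and 0.552 at 12 h, and 8.90 and 7.23 at 24 h. With a floor of 3 counts per library, its level at 30 °C was at least 60.8-fold lower at 12 h than at 1 h, and both libraries were still below 1 CPM at 24 h. At 24 h it was higher at 37 °C than at 30 °C by 4.74 ± 0.94 (SE) on the log2 scale (edgeR adjusted p = 5.9e-04).

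Pp3c13_13170 was one of the 6 genes called higher from 12 h to 24 h at 30 °C. At 30 °C it had 3739 and 3651 CPM at 1 h, 309 and 203 at 12 h, and 548 and 698 at 24 h. At 37 °C it had 4341 and 4580.1, then 271 and 213, and then 968 and 853. Both temperatures gave the same order of the 3 times with no overlap between them. The rise was 1.31 ± 0.19 (SE) on the log2 scale at 30 °C (edgeR adjusted p = 0.0057, and 0.14 when only the 4 libraries compared were fitted) and 1.87 ± 0.20 at 37 °C (edgeR adjusted p = 2.8e-06). The difference between them was 0.56 ± 0.27 (edgeR adjusted p = 0.21).

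Pp3c8_14050 had the largest log2 rise of these 6 genes at 30 °C, from 4.87 and 7.39 CPM at 12 h to 19.0 and 23.9 at 24 h. At 37 °C it rose from 1.31 and 0.331 to 25.6 and 25.8, after 115 and 95.1 at 1 h. Its 24 h libraries lay close together at both heated temperatures and well below the 106 and 99.1 CPM of unheated tissue. The rise was 1.90 ± 0.27 (SE) on the log2 scale at 30 °C (edgeR adjusted p = 0.0040) and 5.01 ± 0.35 at 37 °C (edgeR adjusted p = 4.3e-08), with a difference of 3.12 ± 0.48 (edgeR adjusted p = 4.7e-04). At 24 h the log2 fold change of 37 °C over 30 °C was 0.33 ± 0.23 (edgeR adjusted p = 0.25).

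The neighbours Pp3c21_9970 and Pp3c21_9980 parted at 37 °C. Pp3c21_9970 had 332 and 517 CPM at 37 °C 1 h, 10.9 and 7.77 at 6 h, 2.76 and 1.99 at 12 h, and 26.6 and 36.5 at 24 h. Pp3c21_9980 had 2049 and 1755 at 1 h, 434 and 443 at 6 h, 203 and 124 at 12 h, and 219 and 281 at 24 h. Both had their lowest libraries at 12 h, but from there Pp3c21_9970 rose by 3.70 ± 0.35 (SE) on the log2 scale (edgeR adjusted p = 9.5e-07), and the change of Pp3c21_9980 was 0.57 ± 0.19 (edgeR adjusted p = 0.038), below the fold change limit. At 6 h, Pp3c21_9970 was lower at 37 °C than at 24 °C by a log2 fold change of −4.72 ± 0.31 (edgeR adjusted p = 5.9e-09). Pp3c20_8330 differed from most in its timing at 37 °C, with 34.1 and 40.2 CPM at 1 h, 23.0 and 22.3 at 6 h, 49.5 and 40.7 at 12 h, and 97.2 and 126 at 24 h, where 30 °C had 22.0 and 30.0. Its lowest libraries at 37 °C were those of 6 h, and at 24 h it was higher at 37 °C than at 30 °C by 2.16 ± 0.18 (edgeR adjusted p = 1e-07).

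Some trough genes took another course in heat. Pp3c12_22320 had 21.5 and 8.04 CPM at 30 °C 1 h, 28.7 and 76.9 at 12 h, and 500.4 and 301 at 24 h. At 37 °C it had 27.3 and 833 at 1 h, 464 and 500.3 at 6 h, 381 and 184 at 12 h, and 776 and 891 at 24 h, beside 0.236 and 3.70 at 24 °C 6 h. Its heated 24 h libraries lay above all 8 unheated libraries. It rose from 1 h to 24 h at 30 °C by 4.35 ± 1.12 (SE) on the log2 scale (edgeR adjusted p = 0.0058, and 0.068 without 30 °C 1 h replicate 2). Pp3c14_24300 had 66.5 and 138 CPM at 37 °C 6 h, 129 and 66.0 at 12 h, and 171 and 162 at 24 h, against 3.90 and 2.10 at 24 °C 6 h (log2 fold change at 6 h 5.16 ± 0.79, edgeR adjusted p = 3.8e-05). Pp3c1_14250 had the opposite order, with 143 and 64.0 CPM at 30 °C 24 h and 3.74 and 8.49 at 37 °C 24 h (log2 fold change −4.07 ± 0.71, edgeR adjusted p = 1.6e-04). Pp3c10_6490, which had its lowest unheated libraries at 6 h (41.4 and 43.8 CPM), had 47.9 and 35.2 at 37 °C 1 h, 33.0 and 35.4 at 6 h, 211 and 114 at 12 h, and 64.3 and 75.3 at 24 h. Its 12 h libraries were the highest at 37 °C, where it rose from 1 h by 1.29 ± 0.22 on the log2 scale (edgeR adjusted p = 8.6e-05). Over all 150 genes the highest of the 12 group means was at 24 °C in 97, at 37 °C in 46 and at 30 °C in 7. The 97 had it at 1 h (53) or 24 h (44), the groups that the rule asked to lie above 12 h. The choice of genes thus favoured 24 °C, and nothing is read from these counts.

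Some of the trough genes differed strongly between replicates after 1 h. At 37 °C 1 h, Pp3c14_6470 had 36.3 and 1065 CPM and Pp3c8_16760 had 12.9 and 436. The same genes had 12.8 and 53.4, and 2.95 and 13.9, at 24 °C 1 h, and 49.8 and 14.3, and 13.1 and 5.36, at 30 °C 1 h. Replicate 2 was thus higher at 24 and 37 °C, and replicate 1 at 30 °C, for both genes. In all, 12 trough genes were at least 2-fold higher in replicate 2 at 24 °C 1 h, with none so in replicate 1, and 12 were at least 2-fold higher in replicate 1 at 30 °C 1 h, with none so in replicate 2. These lists of 12 shared 9 genes, and both lay wholly within the 36 genes apart at 37 °C 1 h. None of these counts was made over all genes, and the 24 °C 1 h libraries were among those that chose the trough genes. No trait of the trough genes is therefore read from them. What sets these libraries apart was not tested.

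The fall of Pp3c14_6470 from 1 h to 12 h at 37 °C, called by edgeR with a log2 fold change of −4.02 ± 1.00 (SE; adjusted p = 0.0024), rested on 1 library. Without 37 °C 1 h replicate 2 it was −0.05 (edgeR adjusted p = 0.96). For Pp3c8_16760 the values were −6.07 ± 1.20 (edgeR adjusted p = 4.2e-04) and −1.88 (edgeR adjusted p = 0.07).

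Among 50 light signalling and clock homologs listed by the study and tested here, the calls went in both directions. This list holds Pp3c6_5030 and the 3 genes left out by the rule. By edgeR, 8 were higher and 10 lower at 12 h than at 1 h at 30 °C, where 9.91% and 8.32% of all genes tested were. At 37 °C 10 were higher and 12 lower, near the 18.4% and 19.9% of all genes. From 12 h to 24 h, the 1 gene called higher at 30 °C was Pp3c5_26150, where 0.0653% of all genes were. At 37 °C 8 were higher and 2 lower, where 6.54% and 5.37% of all genes were. The 2 were a COP1 homolog (Pp3c2_24290) and a homolog of the red light receptor PHYC (Pp3c16_18760). The 8 included Pp3c6_5030 and all 3 genes left out by the rule, which were all within its limit at 24 °C, so the 8 are not independent of the trough genes. The others were another COP1 homolog (Pp3c16_19410), a homolog of its partner SPA1 (Pp3c2_15860), and homologs of the clock genes EPR1 (Pp3c12_17450) and PRR7 (Pp3c16_18460).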

How the data were processed

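RNA was sequenced from 24 libraries in 12 groups of 2 biological replicates. Per the sample records, reads were demultiplexed with bcl2fastq 1.8.4. Per the study's methods, they were aligned with BWA-MEM 0.7.17.1 and counted per gene with featureCounts at default settings on the P. patens genome annotation. The deposited values are raw counts per gene, normalised by no one before deposit. CPM was computed from the column totals. The 150 genes were chosen from CPM as the report describes. The members, the gene lists and the comparisons were chosen with earlier results of these data known.

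All 12 groups were fitted together with edgeR 4.0.16 (R 4.3.3) on 21429 genes, those over 0.5 CPM in 2 or more libraries, using TMM factors, the quasi-likelihood test and Benjamini-Hochberg adjustment over all genes tested. A call needed an adjusted p under 0.05 together with a log2 fold change of 1 or more in either direction. Standard errors were the log2 fold change divided by the square root of F. Comparisons with 24 °C libraries of 1, 12 or 24 h were used as description only, because these libraries chose the genes. Alternatives were limma 3.58.1 (voom with eBayes, and treat), DESeq2 1.42.0, other scaling and filters, a replicate block, fits on the libraries compared alone, leaving out 1 of 18 libraries in turn, and other choices of members. The genes named by rule were those with a product name, those just inside and outside the limit and called genes of the clock-related list, which the text gives for 1 comparison at each heated temperature. All others were named after their values were seen. The scripts were tested on simulated counts. With 2 replicates, p-values rest on a spread shared across genes. CPM is not corrected for gene length, so levels were not compared between genes.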

Additional observations from a re-analysis of the deposited data

Results flagged for a closer look

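The course of the 150 trough genes differed between 30 and 37 °C by a test of the difference itself, edgeR's quasi-likelihood interaction of temperature and time. For 12 h against 1 h, 57 genes had a lower difference at 37 °C and 5 a higher one, where 12.1% and 7.32% of all genes tested did. For 24 h against 12 h, 62 genes had a higher difference at 37 °C and 3 a lower one, where 3.91% and 3.42% of all genes tested did. The counts of 57 and 62 were far smaller with limma's treat test, as given in the next section. With 2 libraries in each group, single libraries could not be tested for standing apart. What lies behind these differences was not tested.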

How the results depend on the processing

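Of 24 counts of trough genes called higher or lower, 0 moved by more than 1.5 times with RLE size factors, with a filter of CPM above 1, or with the genes chosen on TMM-scaled CPM. DESeq2 gave 19 in place of 6 higher for 24 h against 12 h at 30 °C, 2 in place of 0 lower for 30 against 24 °C at 6 h, and 5 in place of 3 lower for the difference of 24 h against 12 h between 37 and 30 °C. Without a filter on low counts these 3 counts were 15, 1 and 6, and 2 in place of 1 were higher for 24 h against 1 h at 30 °C. Library totals in place of TMM gave 3 higher for 24 h against 1 h at 30 °C, 2 in place of 1 higher for 12 h against 1 h at 37 °C, 24 in place of 37 higher and 16 in place of 7 lower for 37 against 30 °C at 1 h, and 9 in place of 5 higher for the difference of 12 h against 1 h. They moved the median of all genes by 0.44 and 0.69 for 12 h against 1 h at 30 and 37 °C, 0.41 for 24 h against 1 h at 30 °C, −0.13 for 37 against 30 °C at 12 h and 0.24 for the difference of 12 h against 1 h. Voom with eBayes gave 2 higher for 24 h against 1 h at 30 °C, 1 lower for 30 against 24 °C at 6 h, and 23 higher at 1 h and 7 in place of 13 higher at 12 h for 37 against 30 °C. Treat gave 0 higher for 24 h against 12 h and against 1 h at 30 °C, for 12 h against 1 h at 37 °C and for 30 against 24 °C at 6 h. It gave 45 in place of 102 higher and 0 in place of 1 lower for 24 h against 12 h at 37 °C, and 2 higher and 28 lower for 37 against 24 °C at 6 h. For 37 against 30 °C it gave 2 higher and 1 lower at 1 h, 2 and 17 at 12 h, and 12 and 4 at 24 h. For the differences it gave 0 higher and 7 lower (12 h against 1 h) and 7 higher and 0 lower (24 h against 12 h). Only the libraries compared gave 6 higher for 24 h against 1 h at 30 °C, 0 higher for 12 h against 1 h and 0 lower for 24 h against 12 h at 37 °C, 1 higher and 1 lower for 30 against 24 °C at 6 h, 12 higher for 37 against 30 °C at 1 h, and 3 higher for the difference of 12 h against 1 h.

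The first 100 genes gave 0 higher for 12 h against 1 h and 0 lower for 24 h against 12 h at 37 °C, and 1 lower for the difference of 24 h against 12 h. The first 300 gave 5 higher for 24 h against 1 h at 30 °C, 3 lower for 30 against 24 °C at 6 h, and 3 lower for the difference of 24 h against 12 h. A pseudocount of 5 gave 2 higher for 12 h against 1 h at 37 °C, and 1 higher and 2 lower for 30 against 24 °C at 6 h. It kept 124 of the 150 genes, TMM-scaled CPM kept 147, and leaving out 1 library kept 136 to 144.

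Leaving out 1 library at a time gave, at 30 °C, 116 to 127 lower for 12 h against 1 h, 1 to 12 higher for 24 h against 12 h, and 0 to 3 higher and 108 to 113 lower for 24 h against 1 h. At 37 °C it gave 0 to 4 higher and 129 to 142 lower for 12 h against 1 h, and 85 to 101 higher and 0 to 3 lower for 24 h against 12 h. At 6 h it gave 0 to 2 higher and 0 to 1 lower for 30 against 24 °C, and 16 to 20 higher and 64 to 74 lower for 37 against 24 °C. For 37 against 30 °C it gave 9 to 45 higher and 4 to 8 lower at 1 h, 7 to 19 and 47 to 58 at 12 h, and 39 to 44 and 12 to 17 at 24 h. For the differences it gave 4 to 13 higher and 47 to 72 lower (12 h against 1 h), and 44 to 60 higher and 0 to 7 lower (24 h against 12 h). The log2 fold change of Pp3c5_21160 for 37 against 30 °C at 1 h, 2.03 with all libraries, was −0.064 to 2.84, the lowest without 37 °C 1 h replicate 2 (edgeR adjusted p = 0.95). Of 99 values of single genes, 48 were called under every alternative and 51 lost the call under at least one.

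Whether replicate numbers paired some of the samples was not settled. Over 66 pairs of groups the correlation of same-numbered deviations had a median of 0.030 (−0.19 to 0.33), and 21 were over 0.1. With the replicate number as a block, 11 in place of 6 were higher for 24 h against 12 h at 30 °C, 2 in place of 1 were higher for 24 h against 1 h there, 1 in place of 0 was lower for 30 against 24 °C at 6 h, and no other count moved by more than 1.5 times. The causes of these moves were not tested. Apart from treat, the counts that moved were counts of 7 or fewer and the counts higher for 37 against 30 °C at 1 h and 12 h.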

Other observations

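After 1 h, 9 trough genes had libraries at least 2-fold apart at all 3 temperatures. They were Pp3c13_24110, Pp3c14_16340, Pp3c8_16760, Pp3c26_14540, Pp3c12_22320, Pp3c26_4700, Pp3c9_5910, Pp3c14_6470 and Pp3c14_25290. In each of them replicate 2 was higher at 24 and 37 °C and replicate 1 was higher at 30 °C. No product name was found for any of them in the sources used here. Such genes were not counted outside the trough genes.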
